A study of Mus musculus with 24 samples.

Results

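The transcriptome of high endothelial venule (HEV) cells was set against that of fibroblastic reticular cells (FRC) in Peyer's patches of mice that had received polyethylene glycol (PEG). The libraries were chosen by their labels alone, 6 labelled HEV and PEG and 7 labelled FRC and PEG, which makes 13 of the 24 libraries of the series. All 13 came from mice that drank PEG at 10% (w/v) for 3 days, a treatment given to lower fluid flow, and for each mouse 1000 cells of a type were sorted by flow cytometry from the Peyer's patches and sequenced from poly(A) RNA. The other 11 libraries, 4 HEV and 7 FRC from unperturbed mice, enter only where they are named. Strain, age and sex of the mice, the sorting gates, and whether an HEV and an FRC library share a mouse are not given in the sources used here. The p-values therefore measure the spread between libraries of 1 sorted population each.

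High endothelial venules are the postcapillary venules through which circulating lymphocytes enter lymph nodes and Peyer's patches. Their endothelial cells display addressins, glycoproteins that carry ligands for lymphocyte L-selectin and α4β7 integrin, and in the gut the main addressin is MAdCAM-1. Fibroblastic reticular cells are the mesenchymal cells that build the collagen scaffold of lymphoid tissue and make chemokines and survival factors for lymphocytes, and those of the gut also belong to the wider family of subepithelial fibroblasts.

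The deposited read counts summed to 15823379 to 21710946 reads per FRC library and to 3115003 (HEV library 16) to 19948766 reads per HEV library. Levels are given as CPM, the reads of a gene scaled to a common library total, and a range in parentheses runs from the lowest to the highest library around the median. Differences are log2 fold changes of HEV over FRC from edgeR's quasi-likelihood test, so a positive value means higher in HEV. A gene is called where the Benjamini-Hochberg adjusted p over all genes tested is under 0.05. Values written with ± are such log2 fold changes with an approximate standard error (SE). This SE was derived from the test, as the absolute log2 fold change divided by the square root of the F statistic. Where a group held almost no reads, the fold change depends on the small prior count that edgeR adds. There the SE does not give the precision of the fold change. The first principal component of log2 levels held 49.9% of the variance and separated the 6 HEV from the 7 FRC libraries. The second held 10.8%, and HEV library 7 lay farthest out on it. Every FRC library from PEG carried 1 of the 2 i5 sequencing indexes and every HEV library from PEG the other, so in these 13 libraries index and cell type cannot be told apart. In the control libraries both indexes occur in both cell types. There 0 of 15743 genes were called between the indexes by edgeR's quasi-likelihood test, and 331 (2.10%) had an unadjusted p under 0.05. A model of all 24 libraries with the index as a term (below, the index model) is therefore given beside each named gene whose call it ends, and its counts beside each gene list whose higher or lower calls it moved by 1.5 times or more.

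The 5 defining markers followed the labels in all 13 libraries. Madcam1, which encodes MAdCAM-1, had a median of 7726 CPM in HEV (5628 to 11929) and 45.2 CPM in FRC (21.8 to 72.2). Glycam1, a secreted sialomucin that carries L-selectin ligands, had 6245 CPM in HEV (4606 to 10614) and 4.84 CPM in FRC (0 to 22.4). Pecam1, the endothelial junction protein CD31, had 707 CPM in HEV (601 to 1404) and 1.94 CPM in FRC (0.120 to 3.35). In each of the 3 the lowest HEV library lay above the highest FRC library, and the log2 fold changes were 7.65 ± 0.34, 9.60 ± 1.39 and 9.58 ± 0.65 (SE), with adjusted p = 2.77e-09, adjusted p = 0.000235 and adjusted p = 1.73e-07 from edgeR's quasi-likelihood test. Pdgfra, the PDGF receptor α of gut fibroblasts, had a median of 458 CPM in FRC (355 to 784) and 0.184 CPM in HEV (0 to 1.61). Pdpn, which encodes podoplanin, the surface protein most used to sort FRC, had 213 CPM in FRC (183 to 265) and 0.0530 CPM in HEV (0 to 0.321). Both were lower in every HEV library than in any FRC library (-10.78 ± 0.68, adjusted p = 5.36e-08 and -11.85 ± 0.45, adjusted p = 1.34e-09). Cdh5, the VE-cadherin gene, had 390.1 CPM in HEV (305 to 413) and 0.190 CPM in FRC (0 to 2.12), Col1a1, a fibrillar collagen gene, 1324 CPM in FRC (896 to 2983) and 0.518 CPM in HEV (0.0790 to 1.61), and Pdgfrb, the PDGF receptor β gene, 80.4 CPM in FRC (58.5 to 99.2) and 1.41 CPM in HEV (0 to 9.40). These added markers also kept the groups apart in all 13 libraries. In bulk libraries fewer cells of a type and less RNA per cell cannot be told apart. Chst4 encodes the HEV sulfotransferase of the peripheral node addressin. It did not pass the filter on low counts: HEV libraries held 0 to 9.79 CPM, 6 of 7 FRC libraries held no read, and FRC library 19 held 11.8 CPM.

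**Figure D1:**
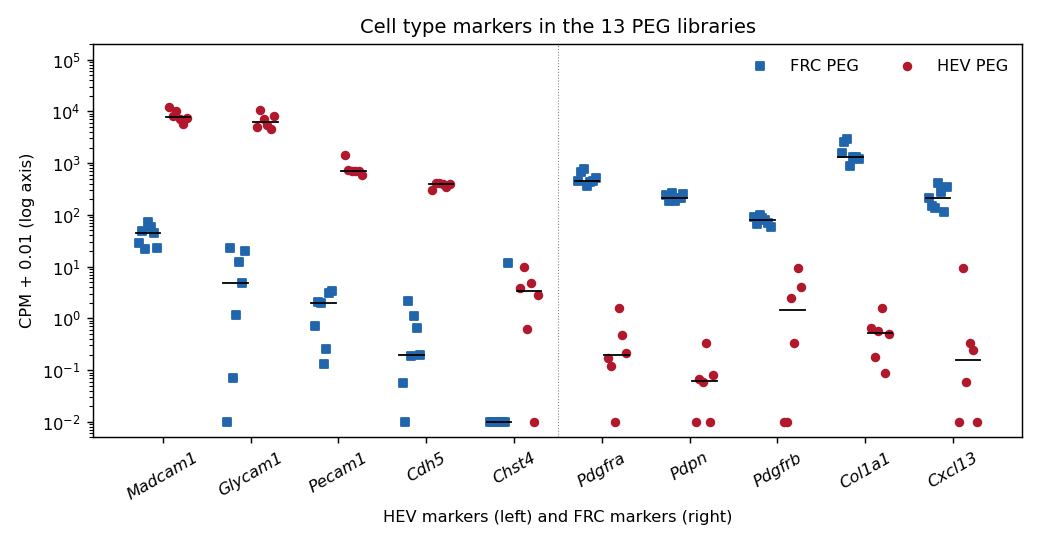
Level of 5 HEV and 5 FRC marker genes in each of the 13 PEG libraries, as CPM + 0.01 on a log axis, with circles for HEV, squares for FRC and a bar at the group median. For 9 of the 10 genes the points of the groups do not overlap, and for Chst4 one FRC library at 11.8 CPM lies above all HEV libraries.

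Of 14991 genes tested, 1868 (12.5%) were higher in HEV and 2154 (14.4%) lower, and the median log2 fold change over all genes tested was -0.08. For 1166 genes (7.78%) all 6 HEV libraries lay above all 7 FRC libraries, and for 1409 (9.4%) all HEV libraries lay below. Some genes were nearly confined to 1 population: 48 genes stayed under 1 CPM in all 7 FRC libraries and exceeded 10 CPM in all 6 HEV libraries, and 139 genes did the reverse. With the index model 2663 genes were called, and 2330 of the 4022 calls (57.9%) were kept in the same direction. All 4022 were tested in that model, and 4014 had the same sign there, called or not. Only the control libraries separate index from cell type in it. Against an absolute log2 fold change of 1 (edgeR's glmTreat) 2430 genes were called, 1052 higher and 1378 lower. The plot of mean levels shows both sets of genes away from the diagonal over the whole range of expression.

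**Figure D2:**
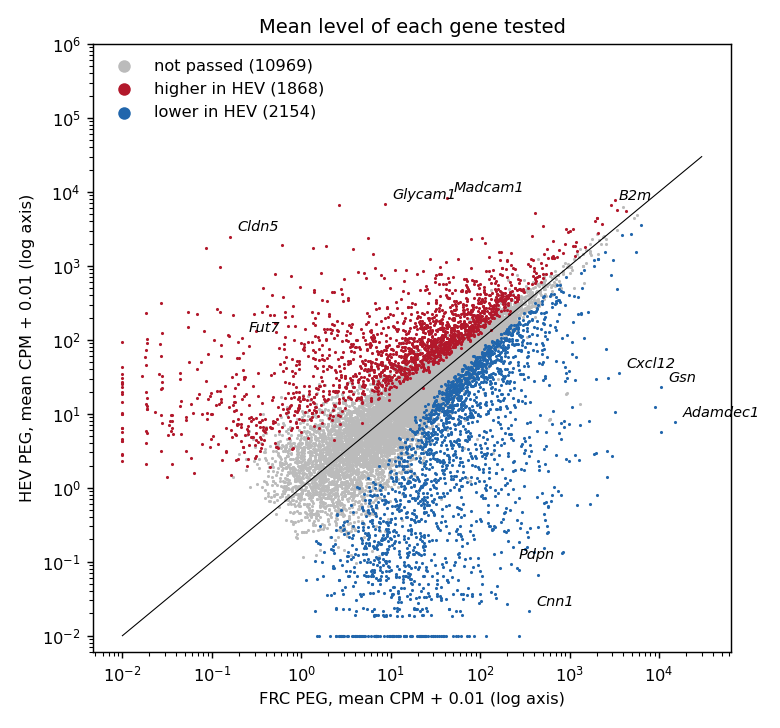
Mean CPM + 0.01 of each of the 14991 genes tested in 7 FRC PEG libraries (x axis) and 6 HEV PEG libraries (y axis), both on log axes, with the line of equal level. The 1868 genes called higher in HEV lie above the line and the 2154 called lower below it with 1 exception, and the points at the lowest value had no read in 1 group.

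The 12 genes of smallest p that were higher in HEV included 3 endothelial adhesion or barrier genes. Cldn5, the claudin of endothelial tight junctions, had 2505 CPM in HEV (1466 to 3510.2) and 0.118 CPM in FRC (0 to 0.316) (log2 fold change 13.88 ± 0.54 (SE), adjusted p = 1.34e-09). Selp, which encodes P-selectin, had 957 CPM in HEV (575 to 1402) and 0.0590 CPM in FRC (0 to 0.359) (log2 fold change 12.99 ± 0.60 (SE), adjusted p = 3.43e-09). Madcam1 was the other. AU021092 stood first in rank, with 228 CPM in HEV (193 to 297) and 0 CPM in FRC (0 to 0.0598) and 1 read in all FRC libraries together. Cytl1, a secreted cytokine-like protein, had 118 CPM (94.8 to 163) in HEV and 2 reads over the FRC libraries, and the adhesion receptor genes Adgrg1 and Adgrl4 had medians of 74.5 and 97.0 CPM in HEV and 1 read each over the FRC libraries. Mctp1, a membrane protein with C2 domains, had 214 CPM (154 to 343) in HEV against at most 0.179 CPM in FRC. Ehd4, an ATPase of endosome recycling, and Bcr, a regulator of small GTPases, were also present in FRC and differed by 4.46 ± 0.19 and 4.36 ± 0.20. H2-Q6, a class Ib histocompatibility gene, and Ctla2b complete the 12, and both have near-identical neighbours (H2-Q7, Ctla2a) between which reads can be split.

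The 12 genes of smallest p that were lower in HEV were led by Cnn1, calponin 1 of the contractile apparatus, with 327 CPM (270.4 to 454) in FRC and 1 read over the 6 HEV libraries, which was in library 23. Gsn, the actin-severing protein gelsolin, had 11535 CPM in FRC (7902 to 12533) and 22.8 CPM in HEV (11.6 to 36.3) (log2 fold change -8.88 ± 0.34 (SE), adjusted p = 1.34e-09). Cilp, a matrix protein, had 423 CPM in FRC (313 to 679.8) and 0.0741 CPM in HEV (0 to 0.112). Secreted proteins made up much of the set: Emid1 (-10.69 ± 0.41), Htra3 (-11.83 ± 0.49), Agt, which encodes angiotensinogen (median 142 CPM in FRC, 3 reads over HEV), Srpx (median 133 CPM in FRC, 3 reads over HEV) and Cxcl12 (-6.63 ± 0.27). Pde1a, a cyclic nucleotide phosphodiesterase, and P2ry14, a receptor for UDP-glucose, had medians of 201 and 290.3 CPM in FRC and 2 reads each over the HEV libraries. Fmo2, a flavin monooxygenase, had 881 CPM in FRC (607 to 1292) and 32.4 CPM in HEV (11.8 to 35.9), and Pdpn was the remaining member.

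By mean CPM, a scale that is not corrected for gene length, the called genes of highest level in HEV were Madcam1, H2-K1, Glycam1, Lrg1, B2m, H2-D1, Junb, Ier3, Ifitm3 and Rps3. Lrg1, a secreted glycoprotein of venous endothelium, had 7169 CPM in HEV (4681 to 7731) and 0.758 CPM in FRC (0 to 9.58) (log2 fold change 11.50 ± 1.19 (SE), adjusted p = 1.71e-05). The call of Junb (log2 fold change 0.80) was lost without FRC library 10 or 19 and without the index set covariate (adjusted p = 0.398), and its groups overlapped. In FRC the corresponding genes were Adamdec1, Gsn, Dcn, Col3a1, Fth1, Tmem176b, Itm2b, Cxcl12, Sparc and Gpx3. Itm2b (-0.71 ± 0.14) had adjusted p = 0.0627 in the index model, and its groups overlapped, as did those of Fth1. Adamdec1, a metalloprotease-like protein of gut fibroblasts, had 15071 CPM in FRC (11451 to 19062) and 3.97 CPM in HEV (1.45 to 25.1) (log2 fold change -11.26 ± 0.85 (SE), adjusted p = 1.05e-06). Gpx3, the secreted glutathione peroxidase, had 3166 CPM in FRC (2928 to 3469.6) and 8.64 CPM in HEV (3.86 to 28.1), and all HEV libraries lay below all FRC libraries for both.

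Gene lists covering 34 programmes of the 2 cell types were then read against the background shares of 12.5% higher and 14.4% lower. Lists were described by counts over the members that passed the filter on low counts, since a member seen in 1 population can pass only through that population. No list median changed when genes without a read in 1 group were set to their bound.

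**Figure D3:**
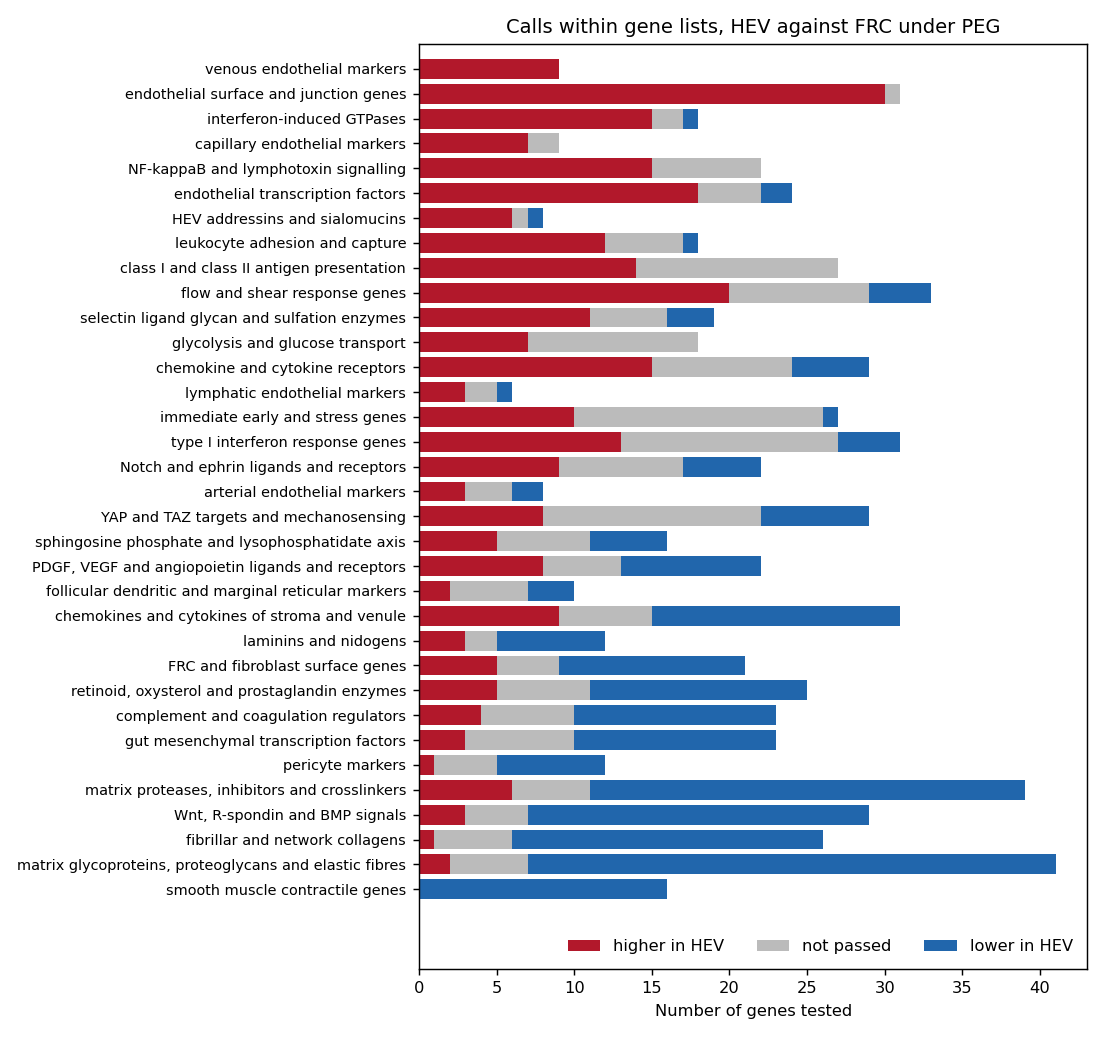
Number of tested genes in each of 34 gene lists that were called higher in HEV, not called, or called lower in HEV, over 6 HEV and 7 FRC PEG libraries. Venous, endothelial surface and interferon-induced GTPase lists lie at the top with mainly higher calls, and collagen, matrix and smooth muscle lists lie at the bottom with mainly lower calls, 16 of 16 for smooth muscle.

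Addressins and sialomucins were higher in HEV for 6 of 8 members tested (8 of 9 listed, median log2 fold change 7.39). Besides Madcam1 and Glycam1 these were Cd300lg, Podxl, Emcn and Cd34. Cd300lg, also called nepmucin, had 192 CPM in HEV (81.9 to 261) and 1.36 CPM in FRC (0.216 to 2.67). Podxl, podocalyxin, had 90.9 CPM in HEV (57.1 to 138) and 0 CPM in FRC (0 to 1.26), and Emcn, endomucin, had 482 CPM in HEV (283 to 643) and 0.0461 CPM in FRC (0 to 7.52). Each of the 3 was close to 0 in most FRC libraries. Cd34 was not restricted in this way: it had 460.1 CPM in HEV (329 to 828) and 368 CPM in FRC (208 to 539.7), the groups overlapped, and the log2 fold change was 0.87 ± 0.19, a call that ended without the index set covariate (adjusted p = 0.145). Podxl2, endoglycan, went the other way with 59.6 CPM in FRC (26.7 to 107) and 0.751 CPM in HEV (0.0559 to 5.06) (log2 fold change -6.03 ± 0.87 (SE), adjusted p = 0.000124). Selplg, the gene of the P-selectin ligand core protein, had a median of 0.913 CPM in HEV and 2.83 CPM in FRC and did not pass (0.06 ± 1.34, adjusted p = 0.983).

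Enzymes that build sulfated and fucosylated selectin ligands were higher in HEV for 11 and lower for 3 of 19 members tested (19 of 20 listed, median 1.36, 8 higher and 1 lower in the index model; 6 higher without HEV library 7 and 7 over libraries 10 to 24 only). Fut7, the fucosyltransferase that completes sialyl Lewis x, had 114 CPM in HEV (61.8 to 146) and 0.0590 CPM in FRC (0 to 0.885) (log2 fold change 9.08 ± 0.84 (SE), adjusted p = 2.25e-06). Gcnt1, which branches core 2 O-glycans, had 71.7 CPM in HEV (40.4 to 93.04) and 1.70 CPM in FRC (0 to 10.2) (4.14 ± 0.83, adjusted p = 0.00183). St3gal6, a sialyltransferase, had 332 CPM in HEV (269 to 475) and 6.61 CPM in FRC (0 to 40.8) (5.30 ± 1.12, adjusted p = 0.00345). The 3 enzymes separated the groups in all 13 libraries. Sult1a1, a cytosolic sulfotransferase, and B4galt4, a galactosyltransferase, were also higher (3.18 ± 0.40 and 2.24 ± 0.47). B3gnt2, which extends lactosamine chains, was higher (1.11 ± 0.21), with adjusted p = 0.230 in the index model. Chst2, the other sulfotransferase of HEV ligands, had 99.4 CPM in HEV (35.2 to 215) and 73.1 CPM in FRC (38.5 to 111) and did not pass (0.28 ± 0.32, adjusted p = 0.585). Papss1, which makes the sulfate donor, was lower in HEV (-1.17 ± 0.27), a call that ended in the index model (adjusted p = 0.101). Its paralog in the same list, Papss2, was called higher in HEV, so the 2 genes went opposite ways. Whether the Papss2 call was kept in the index model is not given here. Ext1, of heparan sulfate synthesis, was lower (-2.24 ± 0.60).

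Capture and adhesion receptors for leukocytes were higher for 12 and lower for 1 of 18 members tested (18 of 20 listed, median 3.06, 11 higher and 0 lower in the index model). Sele, which encodes E-selectin, had 1269.99 CPM in HEV (654 to 4219) and 0.0540 CPM in FRC (0 to 0.295), with 9 reads over all FRC libraries. Icam1, the ligand of the integrin LFA-1, was present in both populations, with 2421 CPM in HEV (1760.4 to 3685) and 334 CPM in FRC (204 to 663) (log2 fold change 3.11 ± 0.19 (SE), adjusted p = 4.57e-08). Jam2, a junctional adhesion molecule, had 352 CPM in HEV (302 to 427) and 47.0 CPM in FRC (24.5 to 56.7) (3.01 ± 0.22). Ackr1, the atypical chemokine receptor of venules, had 1665 CPM in HEV (1253 to 2629.9) and 0.303 CPM in FRC (0 to 7.61). All 4 were higher in every HEV library than in any FRC library. Vcam1, a ligand of the integrin VLA-4, was the exception: it was lower in HEV, with 202 CPM in FRC (134 to 380.1) and 104 CPM in HEV (60.3 to 154) (-1.04 ± 0.26, adjusted p = 0.00917), overlapping groups, and adjusted p = 0.0860 in the index model.

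Endothelial surface and junction genes were higher for 30 of 31 members, with a median log2 fold change of 7.70. Plvap, the diaphragm protein of fenestrae and caveolae, had 2108 CPM in HEV (1774 to 3755) and 111 CPM in FRC (72.2 to 129). Nos3, endothelial nitric oxide synthase, had 146 CPM in HEV (103 to 214) and 0 CPM in FRC (0 to 0.126), and Ecscr, an endothelial surface protein, had 651 CPM in HEV (551 to 784) and 73.9 CPM in FRC (46.9 to 79.3). Plvap and Ecscr were thus also present in every FRC library, whereas Nos3 had 5 reads over the FRC libraries. Ocln, occludin, was the member that did not pass (2.54 ± 1.86, adjusted p = 0.370), with 19.8 CPM in HEV (2.21 to 81.1) and 0.276 CPM in FRC (0 to 45.8), although it passed without FRC library 2 (adjusted p = 0.0412).

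Endothelial transcription factors were higher for 18 and lower for 2 of 24 members (median 4.17, 16 higher and 0 lower in the index model). Tal1, a regulator of blood and vessel formation, had 56.1 CPM (49.5 to 78.9) in HEV and 1 read over the FRC libraries. Mecom, a zinc finger factor of endothelium, had 131 CPM in HEV (79.1 to 345) and 0.187 CPM in FRC (0 to 1.90) (8.59 ± 0.87). Epas1, the hypoxia factor HIF-2α, was expressed in both and was higher in HEV, with 1201 CPM in HEV (721 to 1760.2) and 184 CPM in FRC (123 to 315) (2.47 ± 0.21). Klf2, the flow-induced factor of quiescent endothelium, had 458 CPM in HEV (315 to 568.2) and 80.0 CPM in FRC (38.4 to 93.9) (log2 fold change 2.69 ± 0.23 (SE), adjusted p = 1.13e-06). Every HEV library was above every FRC library for these 4. The lower members were Tbx3 (-1.06 ± 0.31) and Nr2f1 (-3.03 ± 1.05), and both calls ended when single libraries were left out (Tbx3 without FRC 10, HEV 14 or HEV 23, Nr2f1 without any of 10 of the 13 libraries) and in the index model.

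Vessel type markers were listed separately. All 9 venous markers were higher (median 7.70), among them Vwf, von Willebrand factor, with 843 CPM in HEV (371 to 1168) and 3.06 CPM in FRC (0.379 to 11.5), and Nr2f2, the venous identity factor COUP-TFII, with 409 CPM in HEV (228 to 1004) and 49.5 CPM in FRC (34.5 to 73.2) (3.05 ± 0.34). Of 8 arterial markers tested (8 of 10 listed) 3 were higher and 2 lower (2 higher and 1 lower in the index model). Sox17, an arterial factor, had 201 CPM in HEV (104 to 295) and 0.0598 CPM in FRC (0 to 8.25), and Dll4, a Notch ligand, had 105 CPM in HEV (77.8 to 193) and 5.69 CPM in FRC (0 to 10.6). Sema3g reached 4.94 CPM (0.963 to 23.5) in HEV with 3 reads over FRC, and its adjusted p was 0.0812 in the index model. The lower arterial entries were Stmn2 (-1.72 ± 0.33, adjusted p = 0.0940 in the index model) and Fbln5 (-0.89 ± 0.18). Capillary markers were higher for 7 of 9 tested (4 higher and 0 lower in the index model), with Fabp4, a fatty acid binding protein, at 549 CPM in HEV (167 to 718) and 0 CPM in FRC (0 to 6.07) and Aplnr, the apelin receptor, at 213 CPM in HEV (159 to 237) and 4.68 CPM in FRC (0.875 to 27.2). Rgcc was higher (2.98 ± 0.41), with adjusted p = 0.165 in the index model. Kdr, the VEGF receptor 2 gene, had 143 CPM in HEV (83.1 to 262) and 0 CPM in FRC (0 to 4.80). Of 6 lymphatic markers tested (6 of 9 listed) 3 were higher and 1, Pdpn, was lower. Below the filter on low counts, Mmrn1 had 35 reads over HEV and 398 over FRC, 397 of them in FRC library 1. Thy1 had 19 reads over HEV and 99 over FRC, and Reln 73 and 8. Lyve1, the hyaluronan receptor, had 22.6 CPM in HEV (12.9 to 39.6) and 0.184 CPM in FRC (0 to 7.48). Flt4, the VEGF receptor 3 gene, had 25.9 CPM in HEV (12.8 to 70.0) and 2.59 CPM in FRC (0.378 to 6.81). Prox1, the lymphatic identity factor, had 2.79 CPM in HEV (0.112 to 18.8) and 0.108 CPM in FRC (0 to 2.30), with overlapping groups. It was not called without FRC library 1, where a failed test and a fall below the filter on low counts were not told apart. The part of venous, arterial, capillary or lymphatic cells in the HEV sort was not tested.

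Flow and shear response genes were higher in HEV for 20 and lower for 4 of 33 members tested (33 of 34 listed, median 2.10, 17 higher and 1 lower in the index model). Besides Nos3, Pecam1 and Klf2 they included Slco2a1, a prostaglandin transporter, with 426 CPM in HEV (320.2 to 506) and 21.7 CPM in FRC (10.4 to 56.5) (log2 fold change 4.24 ± 0.36 (SE), adjusted p = 1.12e-06), and the caveolar genes Cavin2 (3.21 ± 0.28) and Cav1 (3.14 ± 0.28). The mechanosensitive channels divided between the populations. Piezo1 had 142 CPM in HEV (104 to 161) and 27.0 CPM in FRC (9.13 to 49.0) (2.22 ± 0.27, adjusted p = 3.35e-05). Piezo2 had 23.7 CPM in FRC (12.5 to 54.1) and 0.302 CPM in HEV (0 to 2.29) (-5.55 ± 1.07, adjusted p = 0.00133), with adjusted p = 0.0570 in the index model. Pkd2, a polycystin channel, was lower (-2.12 ± 0.30), and Pkd1, its partner, was lower (-1.79 ± 0.51) with a call that ended without FRC library 11 and in the index model (adjusted p = 0.0532). Klf4, a flow-induced relative of Klf2, had 219 CPM in HEV (177 to 315) and 187 CPM in FRC (129.8 to 307) and did not pass (0.39 ± 0.22, adjusted p = 0.232), although it passed without HEV library 7 (adjusted p = 0.0272). Edn1, endothelin 1, was higher (7.00 ± 1.42), with adjusted p = 0.262 in the index model and 0.0546 over libraries 10 to 24 only.

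The sphingosine phosphate and lysophosphatidate axis guides lymphocyte traffic across HEV. Of 16 members tested 5 were higher and 5 lower (16 of 17 listed, median -0.18, 4 higher and 3 lower in the index model; 3 higher without HEV library 7). Enpp2, autotaxin, had 1099.7 CPM in HEV (847 to 1819) and 167 CPM in FRC (134 to 310.3) (log2 fold change 2.60 ± 0.24 (SE), adjusted p = 2.19e-06), and Spns2, the sphingosine phosphate exporter, had 97.5 CPM in HEV (81.2 to 125) and 4.49 CPM in FRC (0.121 to 10.4) (4.78 ± 0.59). Receptors were split by subtype. S1pr1 had 264 CPM in HEV (186 to 472) and 0.0607 CPM in FRC (0 to 5.08), S1pr3 had 68.2 CPM in FRC (27.1 to 202) and 0.286 CPM in HEV (0 to 3.21), and Lpar1, a lysophosphatidate receptor, had 893 CPM in FRC (624 to 1239) and 1.89 CPM in HEV (0.241 to 5.95). S1pr2 was lower (-3.02 ± 0.84), with adjusted p = 0.0519 in the index model and 0.0688 over libraries 10 to 24 only. Plpp3, a lipid phosphatase, was lower (-1.71 ± 0.23). Lpar6 was higher (1.44 ± 0.38), a call that ended without HEV library 7.

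On the FRC side, surface genes of fibroblasts were lower in HEV for 12 and higher for 5 of 21 members tested (21 of 23 listed, median -1.86, 4 higher and 8 lower in the index model). Cdh11, cadherin 11, had 147 CPM in FRC (88.8 to 193) and 0.0280 CPM in HEV (0 to 1.61), and Itga8, an integrin subunit of mesenchyme, had 39.1 CPM in FRC (5.03 to 135) and 0 CPM in HEV (0 to 0.280). The 5 higher members were Icam1, Eng, Itga5 (2.20 ± 0.31), Ly6a (1.14 ± 0.18) and Cadm3 (2.46 ± 0.49), the last with adjusted p = 0.0810 in the index model. Vcam1 and Cd44 (-1.86 ± 0.30) were among the lower ones. Ltbr, the lymphotoxin β receptor that organises lymphoid stroma, had 72.6 CPM in HEV (43.5 to 86.9) and 67.6 CPM in FRC (47.5 to 88.3) and did not pass (0.21 ± 0.22, adjusted p = 0.531).

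Gut mesenchymal transcription factors were lower for 13 and higher for 3 of 23 members tested (23 of 31 listed, median -4.61). Foxf2 had 107 CPM in FRC (67.2 to 139) and 0 CPM in HEV (0 to 0.316). Gli1 and Gli2, the effectors of Hedgehog signalling, had medians of 29.5 and 34.1 CPM in FRC and at most 0.553 and 0.160 CPM in HEV. Runx1 had 51.5 CPM in FRC (28.7 to 115) and 2.02 CPM in HEV (0.554 to 4.98) (-4.61 ± 0.41). All 4 were lower in every HEV library. Meox1 and Meox2, homeobox genes of mesoderm, were higher: Meox1 had 199 CPM in HEV (185 to 288) and 7.24 CPM in FRC (5.75 to 19.2) (4.60 ± 0.29), and Meox2 had 52.3 CPM (18.1 to 107) in HEV and 2 reads over FRC. Nkx2-3, a homeobox gene needed for Peyer's patch vessels and Madcam1 expression, had 2327 CPM in HEV (1759 to 4288) and 2271 CPM in FRC (2047 to 3424) and did not pass (0.07 ± 0.21, adjusted p = 0.864), and Foxf1 had 54.9 CPM in HEV (40.1 to 65.4) and 81.0 CPM in FRC (54.7 to 92.4) and did not pass (-0.47 ± 0.23, adjusted p = 0.149).

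Collagens were lower in HEV for 20 and higher for 1 of 26 members tested (26 of 28 listed, median -7.32, 0 higher and 19 lower in the index model). Col1a2 had 2589.97 CPM in FRC (2234 to 2967) and 0.864 CPM in HEV (0.401 to 3.21) (log2 fold change -11.24 ± 0.50 (SE), adjusted p = 2.73e-09). Col3a1 had 6930.4 CPM in FRC (5744 to 16726) and 11.5 CPM in HEV (3.13 to 29.2), Col6a3 534 CPM in FRC (492.7 to 727) and 0.125 CPM in HEV (0 to 1.03) and Col12a1 119 CPM in FRC (103 to 229) and 0.0692 CPM in HEV (0 to 0.321). Col15a1, a collagen of vessel basement membranes, was higher in HEV (1.22 ± 0.31, adjusted p = 0.00864), with 94.4 CPM in HEV (49.8 to 135) and 41.9 CPM in FRC (27.5 to 60.2), and its adjusted p was 0.118 in the index model. The basement membrane chains Col4a1 (-0.27 ± 0.17, adjusted p = 0.284) and Col4a2 (-0.51 ± 0.18, adjusted p = 0.0540) did not pass, with medians of 243 and 258 CPM in HEV and 337 and 351 CPM in FRC. Col4a2 passed without HEV library 16 (adjusted p = 0.0210).

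Matrix glycoproteins, proteoglycans and elastic fibre genes were lower for 34 and higher for 2 of 41 members tested (41 of 43 listed, median -5.66, 1 higher and 33 lower in the index model). Dcn and Lum, the small proteoglycans decorin and lumican, had 9940.2 CPM in FRC (8021 to 13871) and 1.52 CPM in HEV (0.602 to 20.9) and 2092 CPM in FRC (1604 to 2393) and 0.315 CPM in HEV (0.0802 to 2.89). Mfap4 and Efemp1, proteins of microfibrils and elastic fibres, had 539.7 CPM in FRC (333 to 680.1) and 0.0626 CPM in HEV (0 to 0.642) and 862 CPM in FRC (606 to 1082) and 0 CPM in HEV (0 to 0.642), and Mgp, an inhibitor of calcification, had 2927 CPM in FRC (1976 to 3425) and 25.9 CPM in HEV (10.6 to 68.1). The few HEV reads of the first 4 did not exceed 20.9 CPM in any library. Sparc was shared, with 3236 CPM in FRC (1683 to 5476) and 528 CPM in HEV (263 to 620.2) (-2.97 ± 0.18). Thbs1, thrombospondin 1, was higher in HEV, with 599 CPM in HEV (567 to 1573) and 203 CPM in FRC (89.3 to 240.3) (2.38 ± 0.32), as was Agrn, agrin (1.35 ± 0.31), whose adjusted p was 0.274 in the index model.

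Laminins and nidogens divided by chain: 3 of 12 members tested were higher and 7 lower (12 of 13 listed, median -2.53, 2 higher and 5 lower in the index model). Lama2, the chain of mesenchymal basement membranes, had 214 CPM in FRC (151 to 292) and 0.341 CPM in HEV (0.0501 to 1.36) (-8.83 ± 0.55). Lama1 (-8.32 ± 0.82), Lamb1 (-2.69 ± 0.23) and Lama4 (-2.39 ± 0.25) were also lower. Lama5 had 160.4 CPM in HEV (75.7 to 223) and 35.5 CPM in FRC (28.6 to 62.6) (1.91 ± 0.28), and Lamb2 was higher (1.08 ± 0.24).

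Proteases, inhibitors and crosslinking enzymes of the matrix were lower for 28 and higher for 6 of 39 members tested (39 of 43 listed, median -3.29). Mmp10 and Mmp3, stromelysins, had 751 CPM in FRC (530.1 to 1489) and 0.0839 CPM in HEV (0 to 0.321) and 329.6 CPM in FRC (161 to 502) and 0.0597 CPM in HEV (0 to 0.395). Pcolce2, an enhancer of procollagen processing, had 109.5 CPM (37.8 to 131) in FRC and 2 reads over HEV, and Adamts2, a procollagen protease, had 134 CPM in FRC (86.4 to 195) and 0.281 CPM in HEV (0.0501 to 0.474). Higher in HEV were Adamts9 (3.04 ± 0.23), Adamts4 (1.19 ± 0.19, overlapping groups, adjusted p = 0.198 without the index set covariate), Timp3 (1.70 ± 0.32) and Timp4, an inhibitor of metalloproteases, with 34.4 CPM (3.00 to 62.0) in HEV and 2 reads over FRC.

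Complement and coagulation genes were lower for 13 and higher for 4 of 23 members tested (23 of 26 listed, median -2.50, 2 higher and 12 lower in the index model). C3, the central complement protein, had 1745 CPM in FRC (1568 to 2443) and 1.53 CPM in HEV (0.201 to 11.2), and C4b had 552 CPM in FRC (397 to 764) and 0.321 CPM in HEV (0 to 2.25). Serping1, the C1 inhibitor, had 2595 CPM in FRC (1989 to 2799.8) and 77.6 CPM in HEV (40.8 to 113) (log2 fold change -5.06 ± 0.25 (SE), adjusted p = 5.28e-09). C1s1, a C1 protease, was lower (-2.51 ± 0.15). HEV were higher in Anxa3 (3.84 ± 0.27) and Procr, the endothelial protein C receptor (1.82 ± 0.22). Cfb, factor B, was higher (1.12 ± 0.21), with adjusted p = 0.110 in the index model. Thbd, thrombomodulin, had 389 CPM in HEV (270.3 to 650.4) and 349 CPM in FRC (267 to 677) and did not pass (0.19 ± 0.26, adjusted p = 0.661).

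Enzymes of retinoid, oxysterol and prostaglandin metabolism were lower for 14 and higher for 5 of 25 members tested (25 of 27 listed, median -4.75). Both retinal dehydrogenases named here, which make retinoic acid, were lower in HEV: Aldh1a2 had 298 CPM in FRC (231 to 378) and 0.0903 CPM in HEV (0 to 5.47) and Aldh1a3 465 CPM in FRC (304 to 785) and 0.0954 CPM in HEV (0 to 10.9). The oxysterol that positions B cells is made by Ch25h and Cyp7b1 and degraded by Hsd3b7. Ch25h had 573 CPM in HEV (263 to 819.6) and 71.5 CPM in FRC (29.6 to 92.9) (3.14 ± 0.24) and Hsd3b7 508 CPM in HEV (377 to 932) and 86.9 CPM in FRC (70.1 to 137) (2.75 ± 0.20), whereas Cyp7b1 had 126 CPM in FRC (94.9 to 140.2) and 3.02 CPM in HEV (0 to 20.7) (-6.99 ± 1.42). The 3 steps were thus not higher in the same population. Ptger2, a prostaglandin receptor, had 64.0 CPM (31.8 to 101) in FRC and 1 read over HEV, and Ptgis, prostacyclin synthase, had 174 CPM in FRC (122 to 274) and 0.0401 CPM in HEV (0 to 2.41). Rbp4 (-9.87 ± 0.88) and Rarres2 (-7.64 ± 0.75), both secreted, were lower.

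Smooth muscle contractile genes were lower in HEV for 16 of 16 members, each in every library (median -6.62). Acta2, smooth muscle actin, had 2227 CPM in FRC (1441 to 2334) and 21.2 CPM in HEV (3.53 to 87.1) (log2 fold change -6.31 ± 0.65 (SE), adjusted p = 1.25e-05). Myh11, smooth muscle myosin, had 375 CPM in FRC (204 to 495) and 4.60 CPM in HEV (0.160 to 22.9), and Des, desmin, had 283 CPM in FRC (219.98 to 364) and 2.10 CPM in HEV (0.0802 to 12.2). Myocd, the smooth muscle coactivator, had 68.6 CPM (32.3 to 172) in FRC and 2 reads over HEV. Tpm2 (-6.91 ± 0.53) and Hhip, a Hedgehog binding protein kept in this list (-10.54 ± 0.56), followed. Pericyte markers were lower for 7 and higher for 1 of 12 tested (12 of 13 listed, median -2.87). Rgs5 had 929 CPM in FRC (666 to 1259) and 25.5 CPM in HEV (1.69 to 60.4) (-5.20 ± 0.69), Kcnj8, a potassium channel subunit, 101 CPM in FRC (93.6 to 148) and 0.0251 CPM in HEV (0 to 4.196), Abcc9 24.5 CPM in FRC (5.29 to 39.1) and 0.0401 CPM in HEV (0 to 0.553) and Gucy1b1, a guanylate cyclase subunit, 103 CPM in FRC (65.1 to 251) and 9.11 CPM in HEV (5.05 to 27.3). Mcam (CD146), which endothelium also expresses, was higher in HEV (3.99 ± 0.53). The share of contractile cells in the FRC sort was not tested. Markers of follicular dendritic and marginal reticular cells were higher for 2 (Madcam1, Enpp2) and lower for 3 of 10 tested (10 of 13 listed, median -0.38). Mfge8 had 2802 CPM in FRC (2216 to 4576) and 1134 CPM in HEV (999 to 1516) (-1.34 ± 0.17). Tnfsf11 (RANKL) had no read in HEV and 5.10 CPM (2.66 to 47.9) in FRC, at least 479-fold lower in HEV against a floor of 3 reads over the HEV libraries. FRC library 1 held 1039 of the 2183 FRC reads, and without it the bound was 306-fold.

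Chemokines and cytokines were distributed over both populations: 9 of 31 members tested were higher in HEV and 16 lower (31 of 36 listed, median -1.85). Cxcl12, which binds CXCR4, had 3791 CPM in FRC (2617 to 4441) and 29.7 CPM in HEV (25.1 to 62.0) (log2 fold change -6.63 ± 0.27 (SE), adjusted p = 1.56e-09). Cxcl13, which draws B cells into follicles, had 209 CPM in FRC (112 to 409.8) and 0.144 CPM in HEV (0 to 9.45), and HEV library 14 alone held 9.45 CPM. Tnfsf13b, the B cell survival factor BAFF, had 157 CPM in FRC (82.3 to 246) and 0.0652 CPM in HEV (0 to 3.21). Il7, the T cell and innate lymphoid survival factor, was lower in HEV (-3.13 ± 0.78), with adjusted p = 0.531 in the index model. Ccl21a, the T zone chemokine, had 3.44 CPM in HEV (1.55 to 18.3) and 1.77 CPM in FRC (0.783 to 4.31) and did not pass (1.44 ± 0.75, adjusted p = 0.190).

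Chemoattractants of granulocytes and monocytes were not all called in 1 direction. Ccl11, eotaxin, had 948 CPM in FRC (628 to 1464) and 1.87 CPM in HEV (0.0790 to 5.605). Ccl2 had 283 CPM in FRC (209.6 to 457) and 2.64 CPM in HEV (0 to 16.2) (-6.00 ± 0.60), Ccl7 107 CPM (34.7 to 194) in FRC with 1 read over HEV, and Cxcl14 212 CPM in FRC (153 to 341) and 0.0796 CPM in HEV (0 to 0.346). Of the neutrophil chemoattractants, Cxcl5 had 19.3 CPM (2.43 to 28.4) in FRC and no read in HEV. Cxcl1 was higher in HEV, with 841 CPM in HEV (465 to 1026) and 394 CPM in FRC (193 to 920.3) (1.20 ± 0.29, adjusted p = 0.00703), overlapping groups, and adjusted p = 0.109 in the index model and 0.235 without the index set covariate. Cxcl2 was also higher, with 27.0 CPM in HEV (20.5 to 38.9) and 11.4 CPM in FRC (1.65 to 23.0) (2.07 ± 0.55, adjusted p = 0.0115), and had adjusted p = 0.0610 without that covariate. Il33, the alarmin, had 397 CPM in FRC (274 to 524) and 26.7 CPM in HEV (19.4 to 40.5) (-3.77 ± 0.21), Il34, a ligand of the receptor CSF1R, 158 CPM in FRC (96.5 to 251) and 0.742 CPM in HEV (0 to 1.82), and Cxcl16 439 CPM in FRC (343 to 691) and 69.5 CPM in HEV (40.8 to 80.3). The 3 interferon-inducible ligands of CXCR3 were higher in HEV. Cxcl10 had 832 CPM in HEV (720.1 to 1871) and 191 CPM in FRC (108 to 371) (log2 fold change 2.53 ± 0.16 (SE), adjusted p = 6.15e-08), and Cxcl9 had 155 CPM in HEV (105 to 310.4) and 22.9 CPM in FRC (15.6 to 48.7) (2.83 ± 0.34). Cxcl11 had 44.9 CPM in HEV (29.9 to 202) and 0 CPM in FRC (0 to 9.27) (8.73 ± 1.97). Its call ended without HEV library 7 (5.75, adjusted p = 0.0802) and, in nearly the same check, over libraries 10 to 24 only (5.64, adjusted p = 0.0782). Tnfsf10, the death ligand TRAIL, had 161 CPM in HEV (133 to 201) and 4.90 CPM in FRC (0 to 9.80) (5.10 ± 0.74), and Il15 had 142 CPM in HEV (93.9 to 238) and 36.4 CPM in FRC (21.4 to 70.5) (1.92 ± 0.35). For these 5 all HEV libraries were above all FRC libraries. Csf3, the granulocyte growth factor, was higher (3.89 ± 0.71), with adjusted p = 0.0870 in the index model. Kitl was higher (1.00 ± 0.21), with overlapping groups. Il6 (0.83 ± 0.50, adjusted p = 0.265) and Cx3cl1 (3.70 ± 1.38, adjusted p = 0.0633) did not pass, although Cx3cl1 passed without HEV library 15 (adjusted p = 0.0438). The heat map of signals by library shows these sets.

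**Figure D4:**
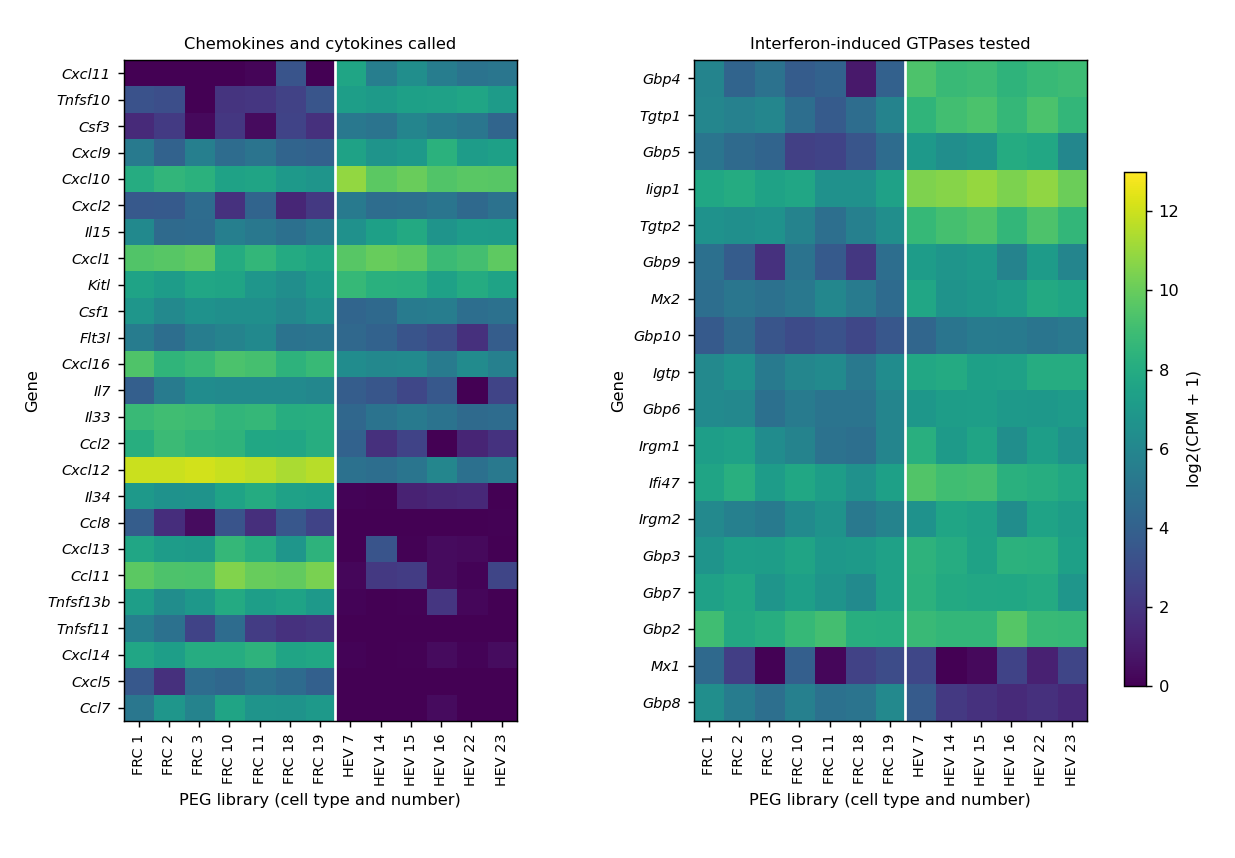
log2(CPM + 1) of the 25 called chemokine and cytokine genes (left) and of 18 interferon-induced GTPase genes tested (right) in each PEG library, ordered by log2 fold change with the white line between 7 FRC and 6 HEV libraries. Cxcl12 and Ccl11 stand out in FRC, Cxcl10 and Iigp1 in HEV, and Gbp4 is lowest in FRC library 18.

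Receptors for chemokines and cytokines were higher for 15 and lower for 5 of 29 members (median 0.73, 10 higher and 4 lower in the index model; 3 lower without HEV library 22). Il6st, the shared receptor chain gp130, had 654 CPM in HEV (439 to 783) and 145 CPM in FRC (115 to 189.5) (log2 fold change 2.10 ± 0.19 (SE), adjusted p = 1.45e-06). Csf2rb, the shared β chain of the GM-CSF, IL-3 and IL-5 receptors, had 222 CPM in HEV (167 to 376) and 28.2 CPM in FRC (14.8 to 49.3) (3.02 ± 0.29). The atypical receptors, which bind chemokines without the usual signal, were split: Ackr2 had 22.4 CPM in HEV (6.79 to 95.1) and 0 CPM in FRC (0 to 0.182) and Ackr4 307 CPM in FRC (186 to 509.7) and 1.04 CPM in HEV (0.0790 to 3.96). Il6ra was lower in HEV (-3.36 ± 0.34), in contrast to its partner Il6st. Tnfrsf11b, the RANKL decoy osteoprotegerin, had no read in HEV and 15.8 CPM (1.00 to 45.4) in FRC, at least 523-fold lower in HEV against the floor of 3 reads. The bound was 418-fold without FRC library 11 and 423-fold without FRC library 2.

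PDGF, VEGF and angiopoietin genes were higher for 8 and lower for 9 of 22 members (median -0.27, 7 higher and 6 lower in the index model), and some ligands and their receptors were called in opposite directions. Pdgfb, the ligand, had 51.2 CPM in HEV (23.8 to 61.8) and 0.0921 CPM in FRC (0 to 2.84) (6.06 ± 1.04, adjusted p = 0.0807 in the index model), while Pdgfra and Pdgfrb lay in FRC. Angpt1, the ligand of the endothelial receptor Tek, had 10.2 CPM in FRC (4.79 to 31.6) and 0.0626 CPM in HEV (0 to 0.802), and Flt1, the VEGF receptor 1 gene, had 208 CPM in HEV (164 to 413) and 0.120 CPM in FRC (0 to 1.52). Pgf, a ligand of that receptor, had 49.9 CPM in FRC (36.8 to 81.1) and 0 CPM in HEV (0 to 1.05). Angptl2 (-9.34 ± 0.71) and Angptl4 (-4.04 ± 0.30) were lower, the latter with adjusted p = 0.186 in the index model. Vegfc, the lymphatic growth factor, was higher in HEV (1.50 ± 0.19), as was the coreceptor Nrp2 (2.25 ± 0.27). Vegfa had 4.76 CPM in HEV (2.33 to 11.3) and 10.6 CPM in FRC (6.22 to 24.0) and did not pass (-1.03 ± 0.68, adjusted p = 0.312).

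Notch and ephrin genes were higher for 9 and lower for 5 of 22 tested (22 of 23 listed, median 1.23, 7 higher and 2 lower in the index model; 3 lower without FRC library 11). Both Jagged ligands of Notch were higher in HEV: Jag1 had 179 CPM in HEV (82.0 to 285) and 23.0 CPM in FRC (6.59 to 50.2) (2.58 ± 0.30) and Jag2 35.6 CPM in HEV (11.8 to 48.3) and 0.230 CPM in FRC (0 to 4.49). Notch1 was higher (2.48 ± 0.47). Hes1, a Notch target, was lower in HEV (-1.01 ± 0.25, overlapping groups, adjusted p = 0.121 in the index model). Efna1 was higher, with 277 CPM in HEV (204 to 387) and 10.6 CPM in FRC (0.0607 to 17.1), and Efna5 lower, with 303 CPM in FRC (139.7 to 555) and 0.0903 CPM in HEV (0 to 0.783). The receptor Ephb3 was lower (-6.48 ± 1.16).

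Wnt, R-spondin and BMP signals were lower for 22 and higher for 3 of 29 members tested (29 of 38 listed, median -5.86, 2 higher and 19 lower in the index model). These ligands and antagonists set the position of epithelial stem cells and differentiated cells along the crypt. Grem1, a BMP antagonist, had 356 CPM in FRC (292 to 479) and 0.0559 CPM in HEV (0 to 1.28) (log2 fold change -11.36 ± 0.75 (SE), adjusted p = 8.14e-08). Bmp4 had 837 CPM in FRC (525 to 1119.8) and 132 CPM in HEV (22.8 to 154) (-3.31 ± 0.35), and Bmp5 had 135 CPM in FRC (106 to 319) and 0.0646 CPM in HEV (0 to 1.04). FRC thus held both the ligands and the antagonist. Rspo3, a Wnt amplifier, had 62.3 CPM in FRC (26.6 to 107) and 0.943 CPM in HEV (0 to 14.8) (-5.86 ± 1.15), Wnt5a 161 CPM in FRC (96.7 to 343) and 1.06 CPM in HEV (0.1003 to 11.9), and the secreted inhibitors Dkk3 345 CPM in FRC (219 to 575) and 0.0251 CPM in HEV (0 to 0.642) and Frzb 62.0 CPM (38.5 to 94.98) with 2 reads over HEV. Bmp7 had 127 CPM (40.3 to 138) in FRC and 3 reads over HEV. Bambi, a decoy receptor, was higher in HEV with 380.01 CPM in HEV (185 to 478) and 90.6 CPM in FRC (65.7 to 215) (1.98 ± 0.29). The other calls higher in HEV, Id1 and Smad7, did not survive leaving out single libraries (Id1 without FRC 10, 11 or 19 or HEV 23, Smad7 without any of 8 libraries), and Id1 had adjusted p = 0.0606 in the index model.

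Interferon-induced GTPases, which attack the vacuoles of intracellular pathogens, were higher in HEV for 15 and lower for 1 of 18 members tested (18 of 19 listed, median 1.72, 9 higher and 1 lower in the index model). Their promoters were examined because most members tested were called in 1 direction. RefSeq promoter sequences (GRCm38.p6) were held for 10 of the 19 listed genes, and the 250 bases before the gene start held the core of the interferon-stimulated response element, GAAANNGAAA on either strand, in 9 of the 10 (Ifi47 lacked it). The same window of all 27025 genes with a sequence held it in 936 (3.46%), and of the genes called higher in HEV in 64 of 1371 (4.67%). Of genes called lower it was in 44 of 1557 (2.83%). Of the listed antigen presentation genes with a sequence it was in 4 of 22 (18.2%), and of the listed type I interferon response genes in 10 of 25 (40%). A match is a description of letters and no test of binding. The GTPase list was chosen as interferon-induced genes, so its share of the motif does not bear on HEV against FRC. Tgtp1 and Tgtp2, near-identical neighbours, are both among the 9. Gbp4, Gbp8, Iigp1 and Mx2 are among the members without a sequence. The windows of 3 called GTPases and of B2m, the gene of this motif with the smallest p among antigen presentation genes, are printed 5′ to 3′ along the gene's strand with the motif in capitals.
Tgtp1, chr11:48992247-48992496, minus strand: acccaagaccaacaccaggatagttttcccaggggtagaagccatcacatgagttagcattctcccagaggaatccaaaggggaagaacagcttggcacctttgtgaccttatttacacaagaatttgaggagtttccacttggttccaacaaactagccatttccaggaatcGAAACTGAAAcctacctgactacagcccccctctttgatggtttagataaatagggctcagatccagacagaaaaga
Igtp, chr11:58199306-58199555, plus strand: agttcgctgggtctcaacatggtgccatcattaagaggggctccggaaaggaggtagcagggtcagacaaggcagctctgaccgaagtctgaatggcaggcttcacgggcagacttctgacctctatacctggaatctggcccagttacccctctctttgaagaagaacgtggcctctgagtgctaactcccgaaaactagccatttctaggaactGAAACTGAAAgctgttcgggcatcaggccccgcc
Gbp5, chr3:142496684-142496933, plus strand: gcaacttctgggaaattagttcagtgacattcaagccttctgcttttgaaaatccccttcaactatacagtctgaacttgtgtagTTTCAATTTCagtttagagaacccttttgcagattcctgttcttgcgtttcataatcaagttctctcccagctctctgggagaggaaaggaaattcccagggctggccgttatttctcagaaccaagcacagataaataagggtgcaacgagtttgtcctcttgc
B2m, chr2:122147437-122147686, plus strand: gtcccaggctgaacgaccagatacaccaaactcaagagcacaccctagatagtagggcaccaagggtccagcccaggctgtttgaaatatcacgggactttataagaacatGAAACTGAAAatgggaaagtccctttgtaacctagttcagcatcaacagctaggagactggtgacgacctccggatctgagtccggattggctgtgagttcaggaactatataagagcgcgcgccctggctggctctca
In Tgtp1, Igtp and B2m the motif reads in the direction of the gene, and in Gbp5 on the other strand.

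Tgtp1 had 468 CPM in HEV (364 to 641) and 52.1 CPM in FRC (12.4 to 62.5) (log2 fold change 3.96 ± 0.38 (SE), adjusted p = 3.15e-06), with a near-identical neighbour, Tgtp2, whose reads may be shared. Iigp1 had 1524 CPM in HEV (1099 to 1951) and 179 CPM in FRC (93.4 to 254) (log2 fold change 3.33 ± 0.26 (SE), adjusted p = 4.28e-07). Gbp4 had 463 CPM in HEV (356 to 658) and 16.2 CPM in FRC (0.826 to 56.5) (5.10 ± 0.58), and FRC library 18 at 0.826 CPM lay apart from the other FRC libraries. Igtp had 231 CPM in HEV (167 to 264) and 68.5 CPM in FRC (37.2 to 99.2) (1.81 ± 0.26), Gbp5 116 CPM in HEV (63.1 to 254) and 17.0 CPM in FRC (4.55 to 32.7) (3.71 ± 0.53) and Mx2 171 CPM in HEV (103 to 235) and 33.1 CPM in FRC (22.2 to 63.6) (2.22 ± 0.30). In all 6 the HEV libraries lay above the FRC libraries. The family was not uniform. Gbp8 was lower in HEV, with 42.9 CPM in FRC (25.7 to 85.8) and 2.50 CPM in HEV (1.87 to 12.3) (log2 fold change -3.50 ± 0.50 (SE), adjusted p = 0.000106), and Gbp2, whose promoter also held the motif, had 427 CPM in HEV (391 to 757) and 280.1 CPM in FRC (233 to 549) and did not pass (0.37 ± 0.23, adjusted p = 0.287).

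Antigen presentation genes were higher for 14 and lower for 0 of 27 members (median 1.15). The class I heavy chains H2-K1 and H2-D1 had 8143 CPM in HEV (6284 to 8608) and 3116 CPM in FRC (2863 to 3741) and 5775 CPM in HEV (4522 to 6707) and 3479 CPM in FRC (2869 to 3999.9) (1.32 ± 0.12 and 0.73 ± 0.13). B2m, their light chain, had 6354 CPM in HEV (5484 to 8044) and 2715 CPM in FRC (2479 to 3698) (1.15 ± 0.14). Nlrc5, the activator of class I genes, had 73.9 CPM in HEV (57.1 to 117) and 4.05 CPM in FRC (0.778 to 6.18) (log2 fold change 4.70 ± 0.51 (SE), adjusted p = 1.04e-05), and Tap1, the peptide transporter, had 196 CPM in HEV (173 to 437) and 55.2 CPM in FRC (20.0 to 139.9) (2.11 ± 0.39). The 14 calls were Nlrc5, class I genes and genes of class I peptide supply. Other members of these kinds, H2-M3, Psmb10, Erap1, Tapbp and Psme2, did not pass. Against a log2 fold change of 1, 6 members of the list were called higher. Class II genes did not pass: H2-Aa had 74.5 CPM in HEV (50.1 to 162) and 44.5 CPM in FRC (2.49 to 59.2) (1.57 ± 0.56, adjusted p = 0.0514), Cd74 229.5 CPM in HEV (136 to 349) and 87.1 CPM in FRC (22.0 to 298) (1.21 ± 0.43, adjusted p = 0.0513), and Ciita, the class II activator, 2.08 CPM in HEV (0.150 to 26.5) and 0.0607 CPM in FRC (0 to 8.93) (1.95 ± 1.92, adjusted p = 0.521). H2-Aa passed under 6 of the alternatives run, among them without HEV library 16 or 23 (adjusted p = 0.0352 and 0.0463). Cd74 passed under 10, among them without FRC library 11 (0.00801) or HEV library 14, 15 or 16 (0.0233 to 0.0458), and Ciita without FRC library 11 only (0.0210). Other type I interferon response genes were higher for 13 and lower for 4 of 31 tested (31 of 32 listed, median 0.86, 9 higher and 1 lower in the index model; 2 lower without HEV library 7). Irf1, the factor that drives many of these genes, had 3474 CPM in HEV (2792 to 4052) and 465 CPM in FRC (327 to 631) (log2 fold change 2.94 ± 0.16 (SE), adjusted p = 1.19e-08). Ifit1 had 355 CPM in HEV (303 to 448) and 45.7 CPM in FRC (27.2 to 64.1) (3.15 ± 0.24), Parp14 215 CPM in HEV (165 to 287) and 27.3 CPM in FRC (12.8 to 42.0) and Isg15, a ubiquitin-like modifier, 126 CPM in HEV (79.4 to 151) and 24.1 CPM in FRC (17.6 to 42.1). Ifi27l2a was lower in HEV, with 1372 CPM in FRC (1064 to 1990.2) and 118 CPM in HEV (64.0 to 136) (-3.84 ± 0.22). Isg20 was lower (-2.77 ± 0.66), with adjusted p = 0.164 in the index model and 0.0631 without the index set covariate.

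NF-κB and lymphotoxin pathway genes were higher for 15 and lower for 0 of 22 tested (22 of 24 listed, median 1.32). Tnfaip3, the feedback inhibitor A20, had 322 CPM in HEV (161 to 1266) and 36.7 CPM in FRC (27.8 to 147) (log2 fold change 3.26 ± 0.23 (SE), adjusted p = 1.97e-07). Nfkbia, the inhibitor IκBα, had 3024 CPM in HEV (2018 to 5261) and 738 CPM in FRC (563 to 1954) (1.98 ± 0.15), and Relb, a subunit of the lymphotoxin-driven arm, had 179.7 CPM in HEV (150.3 to 397) and 52.3 CPM in FRC (30.1 to 102) (2.24 ± 0.22). Nfkbiz was higher (2.59 ± 0.30), as was Birc3 (1.66 ± 0.21). Map3k14, the kinase NIK of the same arm, had 17.3 CPM in HEV (8.35 to 27.3) and 7.10 CPM in FRC (2.16 to 15.6) and did not pass (1.27 ± 0.48, adjusted p = 0.0705), although it passed without FRC library 10 (adjusted p = 0.0460).

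Glycolysis genes were higher for 7 and lower for 0 of 18 members (median 0.39), led by Slc2a1, the glucose transporter GLUT1, with 161 CPM in HEV (104 to 183) and 9.83 CPM in FRC (3.50 to 15.5) (4.08 ± 0.40), and followed by the lactate transporter Slc16a1 (2.42 ± 0.36) and the phosphofructokinase Pfkl (1.99 ± 0.30). Immediate early and stress genes, which also mark handling of cells, were higher for 10 and lower for 1 of 27 (median 0.34, 7 higher and 0 lower in the index model). Ier3 had 5009.8 CPM in HEV (3193 to 6858) and 434 CPM in FRC (316 to 538) (log2 fold change 3.67 ± 0.22 (SE), adjusted p = 3.09e-08), and Fosl2 (2.86 ± 0.21), Zfp36 (2.22 ± 0.23) and Hspb1 (2.98 ± 0.34) were higher. Fos (-0.03 ± 0.18, adjusted p = 0.930) and Jun (0.06 ± 0.23, adjusted p = 0.888) did not pass, with medians of 2337 and 1883 CPM in HEV and 2432 and 2463 CPM in FRC. The part of handling in the other results was not tested.

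YAP and TAZ targets and mechanosensing genes were split, 8 higher and 7 lower of 29 tested (29 of 30 listed, median -0.31), and without HEV library 7 the higher calls were 5. Flna and Flnc encode filamins, which crosslink actin. Flna had 389 CPM in FRC (251 to 439) and 87.7 CPM in HEV (56.1 to 133) (-2.10 ± 0.20) and Flnc 33.5 CPM in FRC (13.9 to 69.6) and 1.22 CPM in HEV (0.900 to 4.59) (-3.95 ± 0.48). Kank3, an endothelial adhesion linker, had 479 CPM in HEV (333 to 604) and 12.7 CPM in FRC (3.92 to 21.5) (5.14 ± 0.46), and Crim1 and Fjx1 were higher (3.03 ± 0.25 and 4.81 ± 1.10). Ilk, the integrin-linked kinase, and Ccn1 were lower (-1.57 ± 0.15 and -1.47 ± 0.17). Ccn2 (0.06 ± 0.42, adjusted p = 0.941) and Yap1 itself (-0.31 ± 0.24, adjusted p = 0.402) did not pass.

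Markers of cells outside both gates were measured as 8 lists, each compared by its mean log2(CPM + 1) with a two-sided exact permutation test (1716 assignments of the labels) and adjusted over the 8 lists. T cell markers were higher in HEV (difference 1.05, adjusted p = 0.00466), with a summed level of 69.1 to 147.6 CPM in HEV and 8.09 to 26.9 CPM in FRC. The raw p of 0.000583 is the smallest this design allows. Of 14 T cell markers 5 passed the filter and 3 were called (Lck, Ccr7 and Cd2), the calls of Ccr7 and Cd2 ended without HEV library 7 and in the index model (adjusted p = 0.591 and 0.990), which left 1 called there. Of the 9 T cell markers below the filter, Cd3d, Cd3e and Cd3g had no read in FRC and 74, 62 and 252 reads over the HEV libraries. Il7r, Lat and Cd8a had 418, 160 and 3 reads in HEV and 13, 21 and 0 in FRC. Single libraries held most of these reads: HEV library 14 held 59 of Cd3d and 137 of Lat, HEV library 22 held 55 of Cd3e and 235 of Cd3g, and HEV library 23 held 367 of Il7r. Cd4 went the other way, with 17 reads in HEV and 73 in FRC, as did Cd5 with 0 and 4. B cell markers were higher in HEV (0.80, adjusted p = 0.0171) at 117.5 to 234.6 CPM against 10.6 to 76.7 CPM. Of 14 B cell markers 8 fell below the filter. Of the 6 tested Ebf1 was called higher and Spib lower (0 higher and 1 lower in the index model). No B cell marker was called higher without FRC library 10 or without HEV library 7. Below the filter, Cd22 had 295 reads in HEV, 282 of them in library 23, and 15 in FRC. Bank1 had 534 reads in HEV and 217 in FRC, all 217 in FRC library 10. Myeloid markers were lower in HEV (-0.79, adjusted p = 0.0163) at 50.7 to 154.8 CPM against 127.1 to 313.3 CPM, with 1 higher and 1 lower of 11. Without FRC library 10 the number of lists that passed was 5 instead of 3. The T and B cell sums did not overlap between the populations. Pan-leukocyte and plasma cell markers (adjusted p = 0.0615, 4 higher and 2 lower of 11, 2 higher and 1 lower in the index model), mesothelial markers (0.0615), enteric glia and neuron markers (0.207, 2 higher and 1 lower of 3, 1 higher and 1 lower in the index model) and erythrocyte and platelet markers (0.605) did not pass. The mesothelial difference was -0.90, and 7 of the 8 mesothelial markers fell below the filter. Of these, Msln, Upk3b, Gpm6a, Krt14 and Wt1 had 1, 0, 0, 0 and 5 reads over HEV. Over FRC they had 1163, 761, 548, 190 and 157 reads, with 647 of Msln and 459 of Upk3b in FRC library 1. Lrrn4 (5 reads in HEV and 6 in FRC) and Bnc1 (2 and 0) did not share this pattern. Intestinal epithelial markers varied most, from 70.6 to 5520 CPM in HEV and from 111 to 7689 CPM in FRC. They did not pass (0.29, adjusted p = 0.837), with 0 of 23 members called by edgeR's quasi-likelihood test. Adding the epithelial level as a covariate left 4077 genes called. The part of leukocyte RNA in the genes named above was not tested.

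The same contrast in the 11 control libraries, which share no sample with the PEG contrast, called 1636 genes higher (10.4%) and 2233 lower (14.2%) of 15743. Of the 4022 PEG calls 3958 were tested in the controls, 3814 had the same sign there, and 2687 were called in the same direction, 66.8% of the PEG calls and 69.4% of the 3869 control calls. Across the 14580 genes tested in both, Pearson's r of the log2 fold changes was 0.86, a description over genes that share libraries and are not replicates. Arf1 and Hnrnpu were called in opposite directions (Arf1 -0.48 in PEG and 0.96 in controls, Hnrnpu 0.54 and -0.54), and the test of that difference gave adjusted p = 0.143 and 0.156. Their PEG calls ended without any of 9 libraries for Arf1 and of 6 for Hnrnpu, and in the index model (adjusted p = 0.327 and 0.291).

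The difference between HEV and FRC was larger or smaller under PEG than in controls for 2 of 18203 genes (0.011%) by the interaction term over all 24 libraries, with 1834 genes (10.1%) at an unadjusted p under 0.05 and 350 called by DESeq2. Rragd, a Rag GTPase that relays amino acid and lysosomal signals to mTORC1, had 9.49, 23.5 and 45.6 CPM as lowest, median and highest value in FRC under PEG and 20.0, 30.2 and 40.4 CPM in control FRC. In HEV it had 0.321, 2.67 and 4.29 CPM under PEG, and no read in any of the 4 control libraries. The interaction was 8.26 ± 1.22 (adjusted p = 0.0208). The fitted size of this term depends on the prior count, since 1 group had no read. Flnc had 13.9, 33.5 and 69.6 CPM in FRC under PEG, 34.4, 53.9 and 81.0 CPM in control FRC, 0.900, 1.22 and 4.59 CPM in HEV under PEG and 0 to 0.233 CPM in control HEV (interaction 4.57 ± 0.75, adjusted p = 0.0234). For both genes the HEV libraries under PEG lay above those of controls without overlap and far below FRC. Both calls ended when the i5 index was added (adjusted p = 0.138 and 0.210). That of Rragd ended without control HEV library 9 (0.0694), and that of Flnc without any of FRC libraries 2 and 11 under PEG and 6, 20 and 21 of controls (0.0568 to 0.0624). The number of genes called was 5 without HEV library 7 or 22, 9, 6 and 16 without control HEV library 17, 24 or 8, and 1 without each library just named that ended a call.

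**Figure D5:**
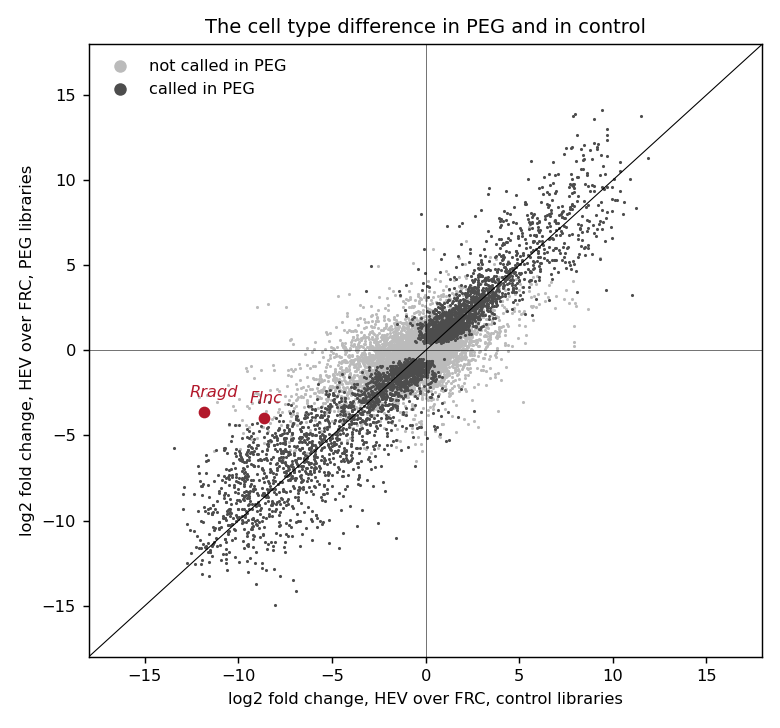
log2 fold change of HEV over FRC in 11 control libraries (x axis) and in 13 PEG libraries (y axis) for each of the 14580 genes tested in both, with the line of equality and the genes called in PEG in dark grey. Most genes called in PEG fall in the quadrants of equal sign, and Rragd and Flnc (red) lie above the line, less strongly lower in HEV under PEG.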

How the data were processed

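Peyer's patch stroma was sequenced from sorted cells, and 13 libraries (6 HEV and 7 FRC, PEG) form the contrast. The authors deposited read counts per Entrez gene model with size factors, and RPKM-like normalised values that served only as a description. GSNAP and the mouse build mm9 are named in the submitters' processing notes, and HTSeqGenie in the labels' protocols. The Nextera libraries do not mark strand, so a gene and its antisense partner cannot be told apart, and near-identical paralogs can share reads. Of 36528 gene models 31049 had a symbol, and these took 97.3% of reads. The 8 pairs of sequencing indexes are reused 3 times (libraries 1–8, 9–16 and 17–24), and the model had these 3 index sets as covariate.

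Counts were filtered with filterByExpr (minimum count 10), scaled by TMM and tested with edgeR's robust quasi-likelihood test (edgeR 4.0.16, limma 3.58.1, R 4.3.3), with Benjamini-Hochberg adjustment over all genes tested. The same model was fitted to 11 control libraries and, with an interaction, to all 24. The median SE of a log2 fold change was 0.58. DESeq2 1.42.0, limma-voom, other filters and scalings, and leaving out each library were alternatives. The code was tested on simulated data. A fold against 0 reads used a floor of 3 reads over the group. No 2 libraries were identical, and log2 levels within a group correlated at r of 0.90 to 0.95.

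The members and the 42 gene lists (832 distinct genes, 903 of 904 entries matched) were chosen with earlier results of these data known. Named genes are the 5 markers, the 12 of smallest p per direction with at least 5 CPM, the 10 of highest level per direction, up to 4 of smallest p per list and direction, and members whose role is described. RefSeq promoter sequences are of GRCm38.p6, and counts and promoters were joined by gene identifier only.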

Additional observations from a re-analysis of the deposited data

Results flagged for a closer look

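In 7 of 64 groups of library values checked, 1 library lay apart from the rest of its group by Dixon's criterion, which chance meets in about 1 in 20 groups. Values are log2(CPM + 1). Pecam1 was 10.5 in HEV library 7 and 9.23 to 9.52 in the other HEV libraries. Cxcl13 was 3.39 in HEV library 14 and 0 to 0.402 in the others. Pdpn was 0.402 and Grem1 1.19 in HEV library 16, the shallowest, against 0 to 0.0965 and 0 to 0.353. Cnn1 was 0.0965 in HEV library 23, a single read, and 0 elsewhere. Among FRC libraries Fut7 was 0.914 in library 19, where Chst4 was also detected, against 0 to 0.392, and Gbp4 was 0.869 in library 18 against 3.79 to 5.84.

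The difference of HEV minus FRC differed between PEG and control mice, by the interaction test, for Rragd (8.26 on the log2 scale, adjusted p = 0.0208) and Flnc (4.57, adjusted p = 0.0234). Without a term for the i5 index both pass, and with it neither does (adjusted p = 0.138 and 0.210).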

How the results depend on the processing

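The 4022 genes called between HEV and FRC under PEG became 2663 with the i5 index in a model of all 24 libraries and 2430 against a log2 fold change of 1, and 3448 to 3944 when 1 library was left out. Under the remaining alternatives the count stayed between 3531 and 5077. In control libraries 3869 calls became 1262 within the libraries of 1 i5 index and 1627 within those of the other. Each of these fits held only part of the control libraries and had no index set covariate, so their counts are not directly comparable with 3869. The interaction count of 2 became 5 without a covariate, 0 with the i5 index, 350 with DESeq2, 38 without a filter on low counts and 1 to 16 when 1 library was left out. Genes described as not passing that passed under some alternative were Cd74 (10 settings, leaving out a library included), H2-Aa (6), Col4a2 (4), Cx3cl1, Map3k14 and Ocln (3 each), Klf4 (2) and Ciita (1). Of 8 other-cell marker lists 3 differed, 5 with a pseudocount of 0.1, and 3 to 5 when 1 library was left out. The share of reads on mitochondrial genes was 0.00045 percentage points higher in HEV for 2 symbols with the mt- prefix (exact permutation p = 0.317). Over all 37 genes of that chromosome, an alternative chosen after seeing the data, the difference was -0.206 (exact permutation p = 0.358). No paired analysis was possible because the groups compared share no replicate numbers and the labels tie no HEV library to the mouse of an FRC library. HEV library 16, with 3115003 reads, limits the precision for genes of low level.

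Settings that ended the call of a named gene are given beside it, apart from further settings for Arf1, Hnrnpu, Nr2f1, Smad7, Ccr7 and Cd2 and the test against a log2 fold change of 1. That test was not passed by 33 of the 265 named calls checked. No named call checked changed sign under the alternatives run. For Papss2, Ebf1 and Spib, named only for their direction, these checks are not given in full. Of named genes that did not pass, 8 changed the sign of their log2 fold change under some alternative. Ccn2 (0.061) was -0.042 with limma-voom, -0.0012 without a covariate, -0.00500 with the epithelial level added, -0.28 over libraries 10 to 24 only and -0.31 to 0.33 when 1 library was left out. Ciita (1.95) was -0.78 with the i5 index, -0.78 over libraries 10 to 24 only and -0.82 to 4.13 when 1 library was left out. Fos (-0.03) was 0.0058 with limma-voom, 0.043 with the i5 index, 0.25 over libraries 10 to 24 only and -0.13 to 0.22 when 1 library was left out. Jun (0.061) was -0.13 without a covariate and -0.064 to 0.29 when 1 library was left out. Nkx2-3 (0.065) was -0.066 to 0.22 when 1 library was left out. Selplg (0.058) was -0.41 with limma-voom, -1.23 without a covariate, -0.074 with libraries 1 to 9 against 10 to 24 as covariate and -0.81 to 0.74 when 1 library was left out. Thbd (0.19) was -0.0043 without a covariate. Yap1 (-0.31) was 0.0797 with the i5 index.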
